A study of Mus musculus with 4 samples.

Results

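The Iroquois genes Irx1 to Irx6 encode homeodomain transcription factors of the TALE class and lie in the mouse genome as a pair of clusters of 3 genes each, Irx1, Irx2 and Irx4 on chromosome 13 and Irx3, Irx5 and Irx6 on chromosome 8. Open chromatin around them was described in the surface ectoderm of the facial prominences at E11.5. ATAC-seq, in which a transposase cuts and tags DNA that is free of nucleosomes, had been run on 2 control and 2 EDKO libraries. Control littermates were Tfap2a flox/+; Tfap2b flox/+ and lacked the Crect transgene, and EDKO embryos were Crect; Tfap2a flox/flox; Tfap2b flox/flox. Crect is driven by an intronic enhancer of Tfap2a to delete genes in early ectoderm. The study's methods mention that the line can recombine more widely, and sires were screened with reporter alleles for that reason. The groups differed in the transgene and in the number of floxed alleles at the same time, and these cannot be told apart here. Ectoderm of the facial prominences was pooled after it had been separated from the mesenchyme with Dispase. A control peak is an interval called from both control libraries together, and an AP-2-dependent region is an interval in which the control libraries exceeded both EDKO libraries, used as the background. The members are all intervals of these lists centred within 500 kb of the start site of an Irx gene: 179 of the 65467 control peaks and 19 of the 3103 AP-2-dependent regions. The intervals were thus selected on position and on having been called, and the genes were chosen with counts of these lists known, so the numbers of peaks and regions near them are a description without a test.

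AP-2 proteins bind as dimers to a palindrome of GCC and GGC, and AP-2α and AP-2β are the members of that family removed in EDKO ectoderm. Iroquois proteins take their name from a fly gene complex that patterns sense organs and wing, and in vertebrates they act in regional identity of neural tube, heart, limb and face. The clusters arose from a duplication, which makes Irx1 and Irx3, Irx2 and Irx5, and Irx4 and Irx6 paralogs. Enhancers of these genes are known to be spread over the gene-poor DNA within and beside the clusters, and on chromosome 8 also through introns of the neighbouring gene Fto, which encodes an RNA demethylase.

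Of the ectoderm markers Krt5, Krt14, Krt15, Trp63, Epcam, Cdh1 and Tfap2a, 7 of 7 had a control peak within 1 kb of the start site, and so had 4 of 5 mesenchyme genes (Prrx1, Prrx2, Twist1 and Col1a1, but not Col3a1). An open promoter alone therefore does not tell these tissues apart, and whether mesenchyme contributed to the peaks was not tested. Every interval carries 1 value from the combined libraries, with no value per embryo, so no error between replicates can be given. For each interval the authors' caller gave a −log10 p at the summit, unadjusted, and an area, the sum over the interval of −log10 p above the threshold of the caller. The lists hold no read counts and the depth behind a peak is unknown. Shares are given with 95% Wilson intervals for counting error, and peaks are not replicates.

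Sequences of 8 of the 19 regions are shown first, because the later account of AP-2 strings turns on them: both regions within 5 kb of the Irx4 start site, and 6 of the 7 regions that contained the string GCCNNNGGC. The seventh, the region with the smallest area of all 19 (306.7 kb downstream of Irx3, in an intron of Fto), was left out. Each run was read 5′ to 3′ from the plus strand of GRCm38 around the summit of the region, and capitals mark GCCNNNGGC. Names give the nearest Irx gene and the distance of the centre of the region from its start site, with upstream and downstream by the strand of the gene.
Irx1, 220.7 kb upstream, chr13:72184350-72184547: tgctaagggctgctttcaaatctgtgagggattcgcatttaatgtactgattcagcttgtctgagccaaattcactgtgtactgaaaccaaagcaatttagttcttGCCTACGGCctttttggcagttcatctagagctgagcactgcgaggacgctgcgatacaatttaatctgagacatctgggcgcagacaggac
Irx2, 134.8 kb downstream, chr13:72763474-72763674: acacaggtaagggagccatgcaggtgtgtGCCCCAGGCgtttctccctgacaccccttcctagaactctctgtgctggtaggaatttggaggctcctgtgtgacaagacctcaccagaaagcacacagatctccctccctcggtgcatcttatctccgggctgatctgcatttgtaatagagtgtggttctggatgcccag
Irx4, 2.33 kb upstream, chr13:73257966-73258166: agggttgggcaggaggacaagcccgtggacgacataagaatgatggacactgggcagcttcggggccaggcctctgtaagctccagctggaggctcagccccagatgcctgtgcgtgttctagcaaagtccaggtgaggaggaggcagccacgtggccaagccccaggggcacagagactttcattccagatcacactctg
Irx4, 2.77 kb downstream, chr13:73263240-73263391: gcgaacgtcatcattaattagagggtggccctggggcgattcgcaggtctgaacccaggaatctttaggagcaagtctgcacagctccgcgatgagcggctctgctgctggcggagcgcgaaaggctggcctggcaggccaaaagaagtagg
Irx4, 81.1 kb downstream, chr13:73341327-73341505: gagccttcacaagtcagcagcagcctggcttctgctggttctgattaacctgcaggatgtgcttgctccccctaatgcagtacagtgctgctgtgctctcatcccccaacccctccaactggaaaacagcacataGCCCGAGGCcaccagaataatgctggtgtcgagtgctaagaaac
Irx3, 497.3 kb downstream, chr8:91304607-91304807: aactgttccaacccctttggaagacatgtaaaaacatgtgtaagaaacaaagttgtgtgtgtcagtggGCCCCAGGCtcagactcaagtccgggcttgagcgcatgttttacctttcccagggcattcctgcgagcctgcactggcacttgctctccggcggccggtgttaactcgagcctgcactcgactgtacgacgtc
Irx5, 30.3 kb downstream, chr8:92388076-92388214: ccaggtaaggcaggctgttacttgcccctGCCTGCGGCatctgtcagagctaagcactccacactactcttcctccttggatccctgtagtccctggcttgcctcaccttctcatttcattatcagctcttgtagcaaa
Irx6, 72.3 kb downstream, chr8:92746539-92746739: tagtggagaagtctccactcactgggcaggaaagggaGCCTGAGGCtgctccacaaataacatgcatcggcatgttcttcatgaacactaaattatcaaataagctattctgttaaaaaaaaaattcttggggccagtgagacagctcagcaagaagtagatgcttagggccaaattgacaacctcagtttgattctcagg

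The 6 sequences with the string held it at 10 to 67 bp from the summit, and neither run beside Irx4 contained it.

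The chromosome 13 cluster held 11 AP-2-dependent regions and the chromosome 8 cluster 8. On chromosome 13 the windows of the 3 genes joined into 1 stretch of 2.30 Mb (GRCm38 chr13:71463723-73760479) with 78 control peaks, or 34.0 per Mb. On chromosome 8 the stretch measured 1.87 Mb (chr8:91301915-93174288) and held 101 control peaks, or 53.9 per Mb. Over all chromosomes there were 24.0 control peaks and 1.13 regions per Mb, against 4.79 regions per Mb in the chromosome 13 stretch and 4.27 in that of chromosome 8. Chromosome 13 thus had the lower density of open sites. Its larger number of AP-2-dependent regions was counted over a longer stretch, and per Mb the clusters were close.

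Each region lay in a control peak of its own, so that 11 of 78 control peaks on chromosome 13 (14.1%, 95% interval 8.06 to 23.5%) and 8 of 101 on chromosome 8 (7.92%, 4.07 to 14.9%) overlapped a region by at least 1 bp. Among all control peaks the share was 4.48%. Since the genes were chosen with these counts known, the background stands beside them only for scale. The share on chromosome 13 was higher by 6.18 percentage points, with a Newcombe interval from −3.02 to 16.4 points. That interval covers counting error only and takes neighbouring peaks as independent. It is no test of the clusters, and they are not said to differ. More than 5 kb from every coding start site, 9 of 60 peaks on chromosome 13 (15.0%) and 8 of 84 on chromosome 8 (9.52%) overlapped a region, beside 5.75% of all control peaks at such distances. With an area of at least 500 for peaks and regions, 4 of 52 and 2 of 60 peaks overlapped (7.69 and 3.33%), beside 2.46% of all. Where an overlap had to span 50% of both intervals, the shares were 10.3 and 4.95%, beside 2.87%.

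**Figure D1:**
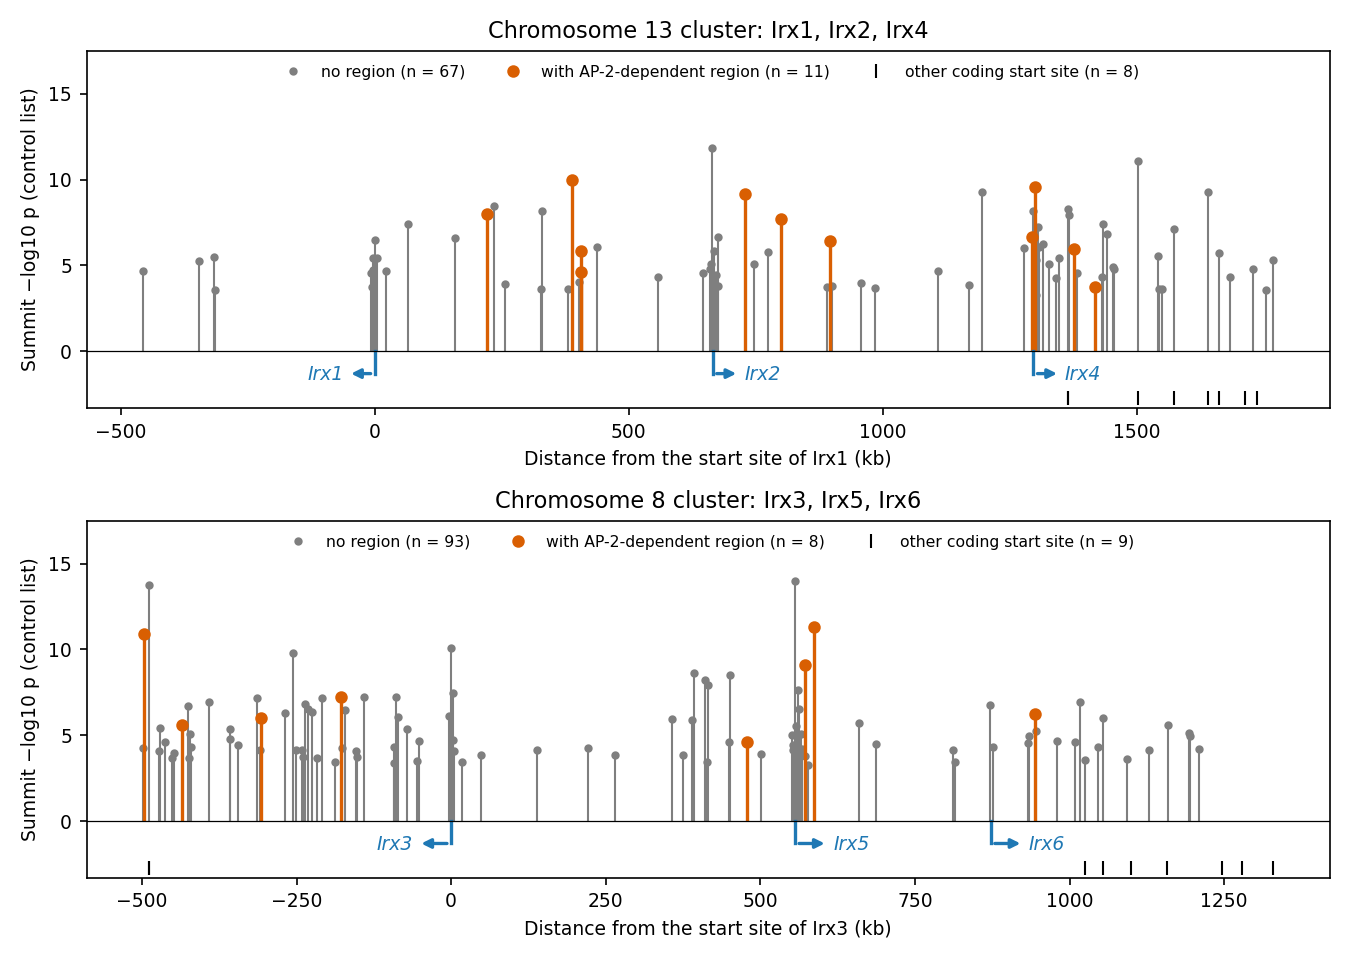
Control peaks of the chromosome 13 cluster (upper panel) and the chromosome 8 cluster (lower panel), with distance from the start site of Irx1 or Irx3 in kb on the horizontal axis and the authors' summit −log10 p on the vertical axis. Orange stems are the 11 and 8 peaks that overlap an AP-2-dependent region, arrows give the start and direction of the Irx genes, and short bars below are start sites of other coding genes. The stems of the 6 promoter peaks are grey, and at Irx4 an orange stem of 9.56 beside the start site is taller than the grey promoter stem of 8.17.

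All 6 Irx start sites lay inside a control peak, as did 61.5% of the 21853 start sites of protein-coding genes, and none of these 6 promoter peaks overlapped an AP-2-dependent region. Among all control peaks centred within 1 kb of a coding start site the overlapping share was 0.985%, with a median width of 1315 bp. Irx5 (chr8:92357625-92376286, plus strand), a gene of retina, heart and face, had the strongest promoter peak. It was 3321 bp wide, its summit reached a −log10 p of 14.0, and it ranked above 99.1% of control peaks. At Irx2 (chr13:72628820-72634198, plus strand), its paralog, the promoter peak of 2364 bp had a summit −log10 p of 11.9, above 95.4% of control peaks. These were also the highest summits of their clusters. Next came the promoter peak of Lpcat1, a lipid enzyme gene, on chromosome 13 (chr13:73466894-73468159, 11.1) and the peak shared by the start sites of Rpgrip1l and Fto on chromosome 8 (chr8:91312924-91314146, 13.8), and neither overlapped a region. The peak that followed in each cluster was one far from any start site that did overlap one, 275.7 kb upstream of Irx2 and 30.3 kb downstream of Irx5 by the position of the region.

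Irx3 (chr8:91798525-91802067, minus strand), known for its part in neural patterning and, with Irx5, in limb and bone, had the widest promoter peak, 4317 bp, with a summit −log10 p of 10.1. The peak extended over most of the gene, and control peaks covered 74.96% of its 3.54 kb. Irx1 (chr13:71957921-71963723, minus strand), its paralog, had the lowest promoter summit of the 6, with a −log10 p of 6.46 over 2712 bp, but control peaks covered 73.4% of the gene. Irx4 (chr13:73260479-73269608, plus strand), best known from the ventricle of the heart, had a promoter peak of 1881 bp with a summit −log10 p of 8.17, and 60.9% of the gene was covered. Irx6 (chr8:92674288-92680956, plus strand) had the narrowest, 1830 bp at 6.76, and only 18.3% of its length was covered, against 46.4% at Irx2 and 55.5% at Irx5. By promoter summit the order was Irx5, Irx2, Irx3, Irx4, Irx6 and Irx1, and without replicates it cannot be said which neighbours differ.

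Around Irx4 the AP-2-dependent regions came closest to a member. Its promoter peak, from 73259880 to 73261760, held none, but the next control peaks on either side did. The upstream region (chr13:73257832-73258464, 633 bp) was centred 2.33 kb before the start site, reached an area of 472 and a −log10 p of 4.18 at the summit, and filled 89.0% of its control peak. The downstream region (chr13:73263096-73263391, 296 bp) lay 2.77 kb after the start site in intron 1 of Irx4, with an area of 587 and a summit −log10 p of 5.61, the highest summit among the 11 regions of chromosome 13. It filled 13.2% of a control peak of 2250 bp, the smallest part among the 19 regions. Within 10 kb of the other 5 start sites there were from 2 to 9 control peaks each and no region. Among all control peaks 4.48% overlapped a region, and 0.985% of those within 1 kb of a coding start site. So few peaks therefore cannot set Irx4 apart from the other members.

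The other 2 regions of Irx4 were 81.1 kb (chr13:73341327-73341765) and 122.3 kb (chr13:73382625-73382908) downstream. Both had Ndufs6, which encodes a subunit of mitochondrial complex I, as the nearest coding start site. They had areas of 279 and 278, and the second filled 91.0% of a control peak whose own summit −log10 p was 3.72, above 12.99% of control peaks.

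Irx2 was the nearest member for 6 of the 11 regions of chromosome 13, all of them more than 60 kb from its start site. Upstream, toward Irx1, the regions were centred 275.7, 259.7 and 258.9 kb away, and the last pair (chr13:72368907-72369387 and chr13:72369642-72370151) lay in neighbouring control peaks next to each other, in an exon of the unconfirmed transcript Gm47836. The upstream region farthest away (chr13:72352943-72353326) sat in a control peak with a summit −log10 p of 9.96, the third highest of the cluster. Downstream, in the gene desert before Irx4, they were 63.4, 134.8 and 232.2 kb away. The middle one (chr13:72763327-72763862) had an area of 892, the largest on chromosome 13, and the nearest one (chr13:72691789-72692596) was the widest at 808 bp. Irx1 had 1 region of its own, 220.7 kb upstream (chr13:72184292-72184547, area 402), which lay between Irx1 and Irx2.

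On chromosome 8, 4 of the 8 regions lay downstream of Irx3 in introns of its neighbours and none within 100 kb of its start site. The region 177.4 kb away (chr8:91624032-91624989), in intron 8 of Fto, was the largest of all 19, with a width of 958 bp, an area of 1511 and a summit −log10 p of 6.49. Further regions were 306.7 kb away in intron 7 of Fto (chr8:91494903-91495448, area 235), 434.4 kb away in intron 1 of Fto (chr8:91367289-91367654, area 475) and 497.3 kb away in intron 4 of Rpgrip1l (chr8:91304473-91304841, area 336), a gene of the ciliary transition zone. The last lay just inside the limit of 500 kb, and the nearest region outside it on this chromosome was 819.0 kb from a member, with an area of 221 and a summit −log10 p of 3.34. On chromosome 13 the region nearest to the limit was 275.7 kb from a member and the first outside 777.6 kb. For control peaks the limit passed between 472.5 and 501.4 kb on chromosome 13 and between 498.0 and 505.0 kb on chromosome 8. The start sites of Rpgrip1l and Fto were the nearest coding ones for 3 of these 4 regions.

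Irx5 had 3 regions. Those 16.01 kb downstream (chr8:92373516-92373998, in an intron of another Irx5 transcript; area 802, summit −log10 p 6.32) and 30.3 kb downstream (chr8:92387960-92388214; area 408, summit 6.27) had the highest region summits of the 19 after the large region in Fto. The control peak around the latter had a summit −log10 p of 11.3, above 93.9% of control peaks. The remaining region lay 77.2 kb upstream (chr8:92280366-92280752, area 363) and was the single region between Irx3 and Irx5. Irx6 had 1 region, 72.3 kb downstream (chr8:92746447-92746745, area 440), toward Mmp2.

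**Figure D2:**
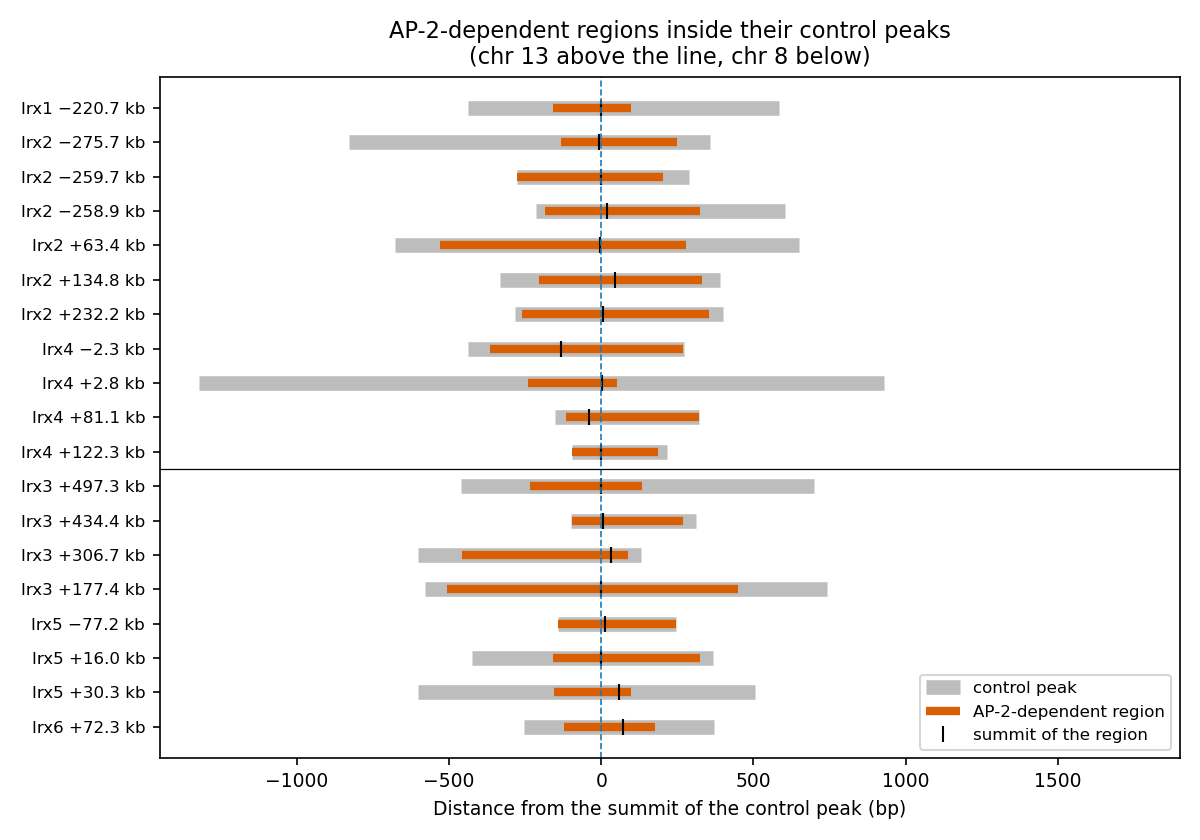
The 19 AP-2-dependent regions (orange) drawn inside their control peaks (grey), with distance from the summit of the control peak in bp on the horizontal axis and 1 row per region, named by nearest Irx gene and distance. Black ticks are the summits of the regions. In 16 of 19 rows the tick is within 50 bp of the dashed line, and the region beside the Irx4 promoter on its upstream side is the farthest from it.

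The regions filled a median of 74.3% of their control peaks on chromosome 13 and 66.6% on chromosome 8, from 13.2% at Irx4 to 99.5% at the upstream region of Irx5. Their summits lay within 50 bp of the summit of the control peak in 10 of 11 and 6 of 8 cases. In both clusters together the median −log10 p at the summit was 6.66 for control peaks that held a region and 4.78 for the others. Median widths were 733 and 571 bp. Regions and control peaks were called from the same control libraries, and a region needs control signal above that of EDKO. Near summits and stronger control peaks are thus part of the selection and not a result about these sites. The 31-base words of all 179 control peaks and all 19 regions occurred a median of fewer than 2 times in the chromosomes, so copy number did not distinguish them.

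Counts were also made along the clusters. Between the outermost members each cluster had 38 control peaks, of which 8 overlapped a region on chromosome 13 (21.1%, 11.1 to 36.3%) and 3 on chromosome 8 (7.89%, 2.72 to 20.8%). The difference was 13.2 percentage points with a Newcombe interval from −3.15 to 29.3 points. Here too peaks were taken as independent, so the interval is no test and no difference is claimed. On chromosome 13 the interval from Irx1 to Irx2 held 4 regions in 20 control peaks and that from Irx2 to Irx4 held 4 in 18. Beyond Irx1 0 of 9 peaks overlapped one, which allows a share of up to 29.9%. In the paralogous interval from Irx3 to Irx5, 1 of 23 peaks did so, and from Irx5 to Irx6 2 of 15. Among all control peaks the share was 4.48%, and counts this small cannot set the intervals apart. The flank of Irx3 that includes Fto was the densest stretch, with 46 control peaks in 500 kb, and 4 of them overlapped a region. That is 9.20 control peaks per 100 kb, against 1.80 in the flank of Irx1, which is the paralogous position.

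**Figure D3:**
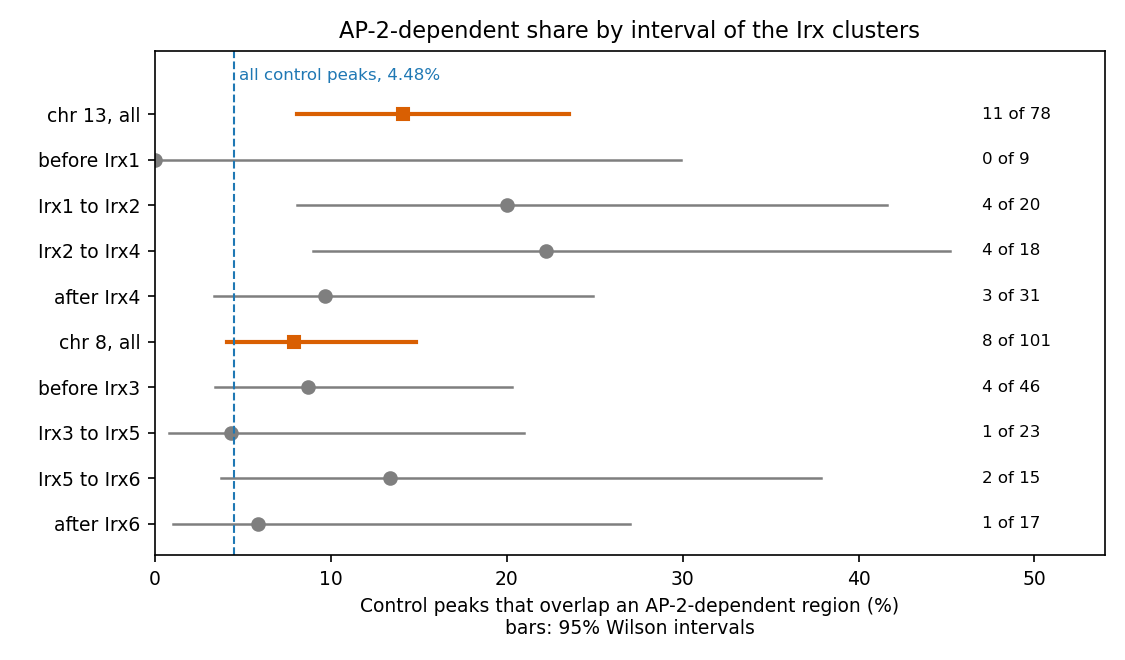
Share of control peaks that overlap an AP-2-dependent region, in percent, for each cluster (orange squares) and for each interval between or beside the Irx genes (grey circles), with 95% Wilson intervals as bars and counts at the right. The dashed line is the share among all control peaks, 4.48%. The bars of the chromosome 13 cluster and its intervals from Irx1 to Irx2 and from Irx2 to Irx4 are drawn above the line, and the others cross it. The line also counts peaks at promoters and is given only for scale. Because the genes were chosen with these counts known and peaks are not replicates, a bar's position relative to the line is not a test.

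The clusters also contain genes of other families: 8 coding start sites on chromosome 13, all beyond Irx4, and 9 on chromosome 8. Among control peaks whose nearest coding start site was an Irx gene, 9 of 55 on chromosome 13 (16.4%, 8.86 to 28.3%) and 5 of 66 on chromosome 8 (7.58%, 3.28 to 16.5%) overlapped a region. By gene this was 6 of 23 peaks at Irx2, 2 of 14 at Irx4, 1 of 18 at Irx1, 3 of 27 at Irx5, 1 of 8 at Irx6 and 1 of 31 at Irx3. For peaks nearest to another gene the counts were 2 of 23 (8.70%) and 3 of 35 (8.57%), all at Ndufs6, Fto and Rpgrip1l. Near Lpcat1, Slc6a3, Clptm1l, Tert, Slc6a19 and Mrpl36 on chromosome 13, and near Mmp2, Lpcat2, Capns2, Slc6a2 and Ces1a on chromosome 8, none of the peaks did. Each of these genes had only 1 to 4 such peaks. With 4.48% of all control peaks overlapping a region, that is too few to say that they lack regions.

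Counted gene by gene within 500 kb, Irx2 had 7 regions, Irx4 6, Irx3 5, and Irx1, Irx5 and Irx6 4 each, and neighbouring members share regions in these counts. The median over all 21853 protein-coding genes was 1, and 37.5% of them had none. Fewer regions than Irx2 were found at 98.4% of all genes, fewer than Irx4 at 97.3%, fewer than Irx3 at 95.6% and fewer than the other members at 91.0%. These ranks depended on the window and the minimum area. Within 250 kb Irx1, Irx3 and Irx6 had 1 region each, above 58.6% of genes, Irx2 and Irx5 had 3, above 93.9%, and Irx4 had 4, above 97.5%. With an area of at least 500 within 500 kb, Irx1 had 0 regions, Irx3, Irx5 and Irx6 had 1 each, above 68.5% of genes, and Irx2 and Irx4 had 3 each, above 96.8%. The number of control peaks did not rank the genes in the same way. Irx3 had 64, Irx6 46, Irx5 44, Irx4 42, Irx2 30 and Irx1 24, around a median of 37 for all genes.

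**Figure D4:**
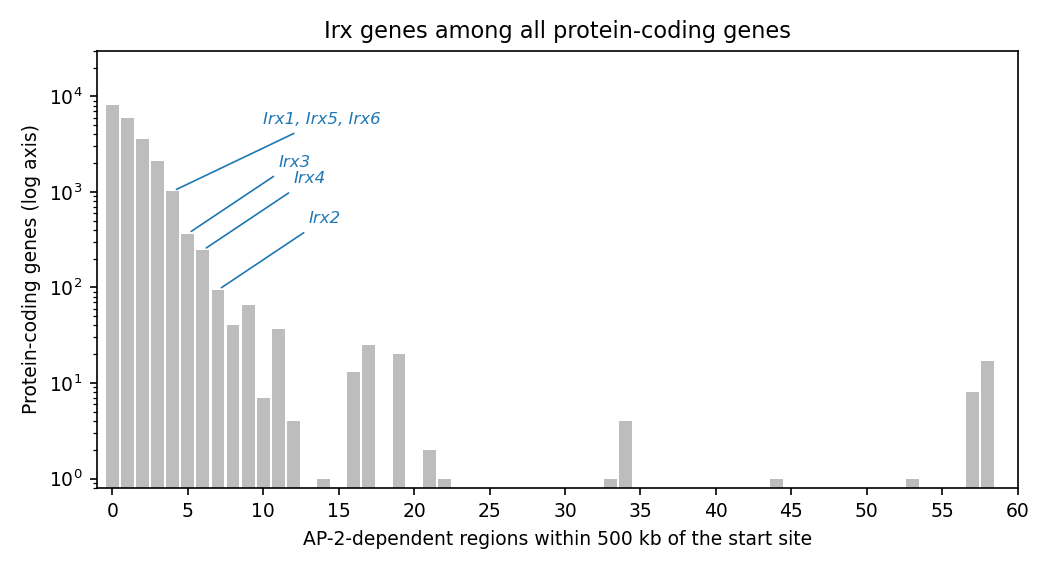
Number of AP-2-dependent regions within 500 kb of the start site (horizontal axis) for all 21853 protein-coding genes (vertical axis, number of genes, log scale). Blue labels place the Irx genes, at 4 to 7 regions, to the right of the median of 1. The largest number for any gene is 58.

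The same count was made for other homeobox genes. For 12 TALE genes outside the Iroquois family, which encode the Meis, Pbx, Pknox, Tgif and Mkx proteins, 20 of 591 control peaks within 500 kb overlapped a region (3.38%, 2.20 to 5.17%), with a median of 1 region per gene. For the 6 Dlx genes, homeobox genes that lie side by side in pairs, it was 6 of 170 peaks (3.53%, 1.63 to 7.49%), with a median of 3 regions per gene. For the 6 Irx genes it was 19 of 179 (10.6%, 6.90 to 15.98%), with a median of 4.5, and no TALE gene of that list had more than 5, the number at Meis2. These lists were set beside the Irx genes only to place them.

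AP-2 strings were counted within 100 bp of summits, on both strands, in windows of equal length. GCCNNNGGC was present in 16 of 78 control peaks on chromosome 13 (20.5%, 13.04 to 30.8%) and 16 of 101 on chromosome 8 (15.8%, 9.99 to 24.2%), and in 14.4% of all control peaks on chromosomes. Among the regions it was present in 3 of 11 on chromosome 13 (27.3%, 9.75 to 56.6%) and 4 of 8 on chromosome 8 (50.0%, 21.5 to 78.5%), beside 22.7% of all regions. The sequences shown above carry it as GCCTACGGC at Irx1, GCCCCAGGC at Irx2 and in the region in Rpgrip1l, GCCCGAGGC at Irx4, GCCTGCGGC at Irx5 and GCCTGAGGC at Irx6. The last also matches CCTNAGG, a second AP-2 string, which was found in 2 of 11 and 3 of 8 region windows, beside 30.6% of all regions. With either string counted anywhere in the interval, 5 of 11 and 5 of 8 regions had a match. Over all regions on chromosomes GCCNNNGGC alone was present anywhere in 29.7%. The share with either string was not counted there, so the counts of 5 and 5 have no background. The 4 regions with the highest area, 1511 at Irx3, 892 at Irx2, 802 at Irx5 and 590 at Irx2, included 1 with GCCNNNGGC, and both regions beside the Irx4 promoter lacked both strings. An absent string says only that these letters are not in the window.

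Control peaks that held GCCNNNGGC at the summit overlapped a region in 7 of 32 cases in both clusters together (21.9%, 11.02 to 38.8%) and those without it in 12 of 147 (8.16%, 4.73 to 13.7%). The same shares over all control peaks were 7.03 and 4.04%. On chromosome 8 the counts were 4 of 16 and 4 of 85, and on chromosome 13 3 of 16 and 8 of 62. For CCTNAGG in both clusters together, 5 of 30 peaks with it overlapped a region (16.7%, 7.34 to 33.6%). Without it 14 of 149 did (9.40%, 5.68 to 15.2%). Over all control peaks the shares for CCTNAGG were 10.8 and 3.53%, farther apart than those for GCCNNNGGC.

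Among other strings, ACANNTGT, which Iroquois proteins bind in flies, lay at 8 of 78 summits of control peaks on chromosome 13 and 10 of 101 on chromosome 8. Together that was 10.1% (6.46 to 15.3%), beside 5.44% of all control peaks. In the regions it was present in 4 of 19, beside 7.62% of all regions. GGAATG, bound by TEAD proteins, was present in 3 of 19 regions (15.8%), beside 19.2% of all regions. The string of the p53 family, to which the epidermal regulator p63 belongs, was found in 3 of 8 regions on chromosome 8. On chromosome 13 it was found in 0 of 11, which allows a share of up to 25.9%. In both clusters together that was 15.8% (5.52 to 37.6%), beside 10.5% of all regions. The string of CTCF, a protein of domain boundaries, was at 7 of 78 control peaks on chromosome 13 and 2 of 101 on chromosome 8, beside 6.21% of all control peaks. It was in 0 of 19 regions, which allows up to 16.8%, and in 0.326% of all regions, so its absence from 19 regions says nothing particular about them.

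**Figure D5:**
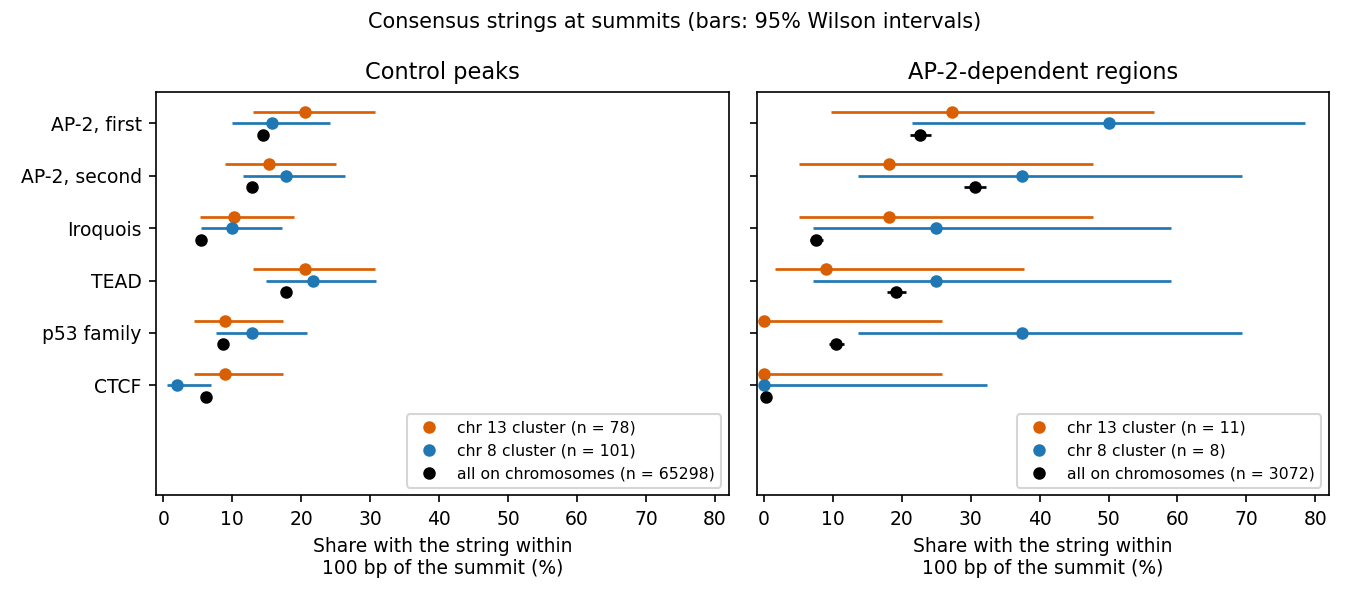
Share of control peaks (left) and AP-2-dependent regions (right) with a consensus string within 100 bp of the summit, in percent, for the chromosome 13 cluster (orange), the chromosome 8 cluster (blue) and all intervals on chromosomes (black), with 95% Wilson intervals. AP-2, first is GCCNNNGGC and AP-2, second is CCTNAGG. The bars of both clusters overlap each other for every string, and the bars for regions are wide because they rest on 11 and 8 intervals.

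Promoter sequences of RefSeq (GRCm38.p6, 250 bases before to 50 after the start) were held for 3 of the 6 genes, Irx2, Irx3 and Irx4. GCCNNNGGC was present in that of Irx2, CCTNAGG in that of Irx4, and neither in that of Irx3, while the strings occur in 16.6 and 10.97% of all 32851 such promoters.

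What the clusters share in sequence was searched by comparing each of the 179 control peaks with all control peaks on chromosomes. In 4 peaks of each cluster the most similar peak outside the own cluster lay in the other Irx cluster, and all 4 pairs were reciprocal. In 3 pairs the alignment covered coding exons: exon 2 of Irx2 and Irx5 (88.3% identical over 240 columns), exon 2 of Irx1 and Irx3 (91.2% over 193) and exon 1 of Irx2 and Irx5 (72.3% over 256). These are paralogous genes. Irx4 and Irx6 gave no such pair.

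The remaining pair was the most similar by score and lay outside coding sequence. A control peak 65.8 kb upstream of Irx1 (chr13:72028906-72030214, intergenic) and another 3.47 kb upstream of Irx3 (chr8:91804973-91805802, within the antisense gene Irx3os) aligned over 271 columns with 243 identical, or 89.7%. Each was the only control peak in the genome to which the other was similar at an expected value of at most 1e-5. Both lay between the divergently transcribed members, Irx1 and Irx2 or Irx3 and Irx5. They are shown as the one pair outside coding exons, with capitals for bases that are identical in the alignment.
Irx1, 65.8 kb upstream, chr13:72028906-72029176: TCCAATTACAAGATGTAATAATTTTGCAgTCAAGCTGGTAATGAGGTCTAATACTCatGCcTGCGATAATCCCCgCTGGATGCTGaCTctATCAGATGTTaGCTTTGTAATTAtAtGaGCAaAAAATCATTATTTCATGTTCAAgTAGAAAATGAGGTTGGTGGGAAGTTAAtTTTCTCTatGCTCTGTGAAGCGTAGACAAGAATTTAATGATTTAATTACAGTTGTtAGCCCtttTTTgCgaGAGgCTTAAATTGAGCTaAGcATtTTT
Irx3, 3.47 kb upstream, chr8:91804974-91805240: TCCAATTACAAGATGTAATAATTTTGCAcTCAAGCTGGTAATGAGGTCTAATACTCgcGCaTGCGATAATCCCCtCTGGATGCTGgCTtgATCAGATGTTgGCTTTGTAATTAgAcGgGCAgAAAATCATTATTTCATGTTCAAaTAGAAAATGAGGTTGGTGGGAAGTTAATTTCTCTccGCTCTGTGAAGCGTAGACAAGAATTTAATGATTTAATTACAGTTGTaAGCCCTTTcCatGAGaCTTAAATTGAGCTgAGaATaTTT

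The longest run of identical bases measured 46. TAATTA, the core that many homeodomain proteins bind, occurred 2 times in each sequence, and 5.74% of all control peaks hold it within 271 bases around the summit. That share is not a like comparison, because the aligned stretches do not include the summits of their peaks. They are also poorer in G and C, at 35.1 and 37.5%, against a median of 53.2% within 100 bp of the summits of all control peaks. The summit −log10 p of both peaks was similar, 7.38 on chromosome 13 and 7.49 on chromosome 8, above 75.7 and 76.4% of control peaks. Neither overlapped an AP-2-dependent region or held GCCNNNGGC within 100 bp of its summit. None of the 19 control peaks that overlapped a region was in one of the 4 pairs. Only 4 of 78 and 4 of 101 control peaks were, so the absence from 19 peaks says nothing particular about them.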

How the data were processed

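The members, gene lists and comparisons were chosen with earlier results of these data known. Per the paper's methods, the authors trimmed reads with NGmerge, mapped them with Bowtie2 to mm10, keeping up to 10 alignments per read, and used Genrich for peaks after dropping duplicates and mitochondrial reads. The submitters' processing notes also name SAMtools. Replicates were combined in each call. The deposited score is the area under the curve per width, times 1000 and capped at 1000, and was not used. The area under the curve is a score deposited by the authors, with a minimum of 200.006 among control peaks. The deposited −log10 p at the summit is unadjusted. Summit positions come from the deposited offsets. Values were compared only within a list.

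Start sites are those of APPRIS principal transcripts of 21853 protein-coding genes in GENCODE M21 (GRCm38, the same assembly as mm10). Overlaps needed at least 1 bp. Copy number used 31-base words on the chromosomes. Strings were matched with Python 3.11.15, and peaks compared with BLAST+ 2.17.0 (blastn, word size 11, low-complexity masking, expected value at most 1e-5). The overlap and string searches were tested on simulated data. Named were the 6 genes, all 19 regions, the promoter peaks, the 3 strongest control peaks of each cluster and all similar pairs, and the sequence rule allowed 8 regions. TAATTA was searched after the pair had been seen. RNA-seq, H3K4me3 and conservation data were not analysed here.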

Additional observations from a re-analysis of the deposited data

How the results depend on the processing

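Of 66 alternative values for the counts, shares and similar pairs, 51 stayed within 1.5 times the count or inside the 95% interval of the share. A minimum area under the curve of 500 left 4 regions on chromosome 13 and 2 on chromosome 8, and 60 control peaks on chromosome 8, with overlapping shares of 7.69 and 3.33%, beside 2.46% of all control peaks. Under it 0% of the regions on chromosome 8 held GCCNNNGGC at the summit, and the medians per Irx gene fell to 26 control peaks and 1 region. Over all protein-coding genes the medians under it were 24 and 0. A window of 250 kb left 5 regions on chromosome 8 and medians of 22 control peaks and 2 regions per Irx gene. Over all protein-coding genes the medians in that window were 19 and 0. Peaks nearest to an Irx start site, a choice added after the data had been seen as was the distance of more than 5 kb, numbered 66 control peaks and 5 regions on chromosome 8. Over whole control peaks GCCNNNGGC was present in 37.2% on chromosome 13 and 39.6% on chromosome 8, beside 32.4% of all control peaks on chromosomes. These settings use fewer or longer intervals by construction. Overlap of 50% of both intervals and CCTNAGG moved no value beyond its interval. Single-copy sequence could move none, because every peak and region already met it. The 4 similar pairs were also counted at an expected value of 1e-10 and at an area of at least 500. Their expected values were at most 2.62e-31 and their areas above 500, so these settings could remove none. Such fixed values are among the 51.

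No paired analysis was possible because each list merges its libraries into 1 value per interval, and for the same reason no fit without 1 of the libraries was made. The depth behind the peaks is unknown, as is the spread between embryos.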
